A study of Mus musculus with 56 samples.

Results

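The circadian clock genes described here are 10 genes chosen by name: Arntl, Per1, Per2, Per3, Cry1, Nr1d1, Nr1d2, Dbp, Hlf and Ciart. All 10 were among the 18088 genes of the deposited table, and all 10 passed a filter on low values (a normalised read count of at least 10 in at least 4 libraries) that 17778 genes passed. The study sequenced messenger RNA of the prefrontal cortex of male and female C57BL/6J mice at postnatal day 25. Pups had received fluoxetine (a serotonin reuptake inhibitor), lithium (a mood stabiliser) or vehicle through their mothers' milk for 3 weeks, over postnatal days 3 to 24. The mice were heterozygous for Scn2a (HT), the gene of a neuronal voltage-gated sodium channel, or wild type (WT). The 56 libraries comprised 9 of HT mice given fluoxetine, 10 of HT mice given lithium, 10 of HT mice given vehicle, 9 of WT mice given fluoxetine, 9 of WT mice given lithium and 9 of WT mice given vehicle, with 4 or 5 libraries of each sex in each of these groups. All groups, vehicle included, thus share dosing through the mother. The hour of collection, the litter and the dam are not given in the labels, so none of them could be set beside the clock genes. Because dosing was through the mother, a difference between dams or litters cannot be told apart from a drug effect.

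The mammalian clock is a feedback loop of transcription. Arntl (also called Bmal1) pairs with Clock or Npas2 to form an activator that binds E-boxes and switches on the Per and Cry genes, whose proteins then inhibit that activator. Nr1d1 and Nr1d2 (Rev-erb alpha and beta) are nuclear receptors that repress Arntl through RRE elements, and Ciart (also called Chrono) is a further repressor of the activator. Dbp and Hlf, transcription factors of the PAR bZIP family, act on D-boxes in output genes and in Per genes. In many mouse tissues Arntl peaks at the opposite time of day to Dbp, Nr1d1 and the Per genes, while Cry1 peaks later than the Per genes. Per1 and Per2 are also known to be induced by neuronal activity and by glucocorticoids.

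In GRCm38 coordinates Arntl is at chr7:113207465-113314126 and Dbp at chr7:45705088-45710203, both on the plus strand. Per1 is at chr11:69095217-69109960 on the plus strand, with Nr1d1 at chr11:98767932-98775333 and Hlf at chr11:90336536-90390895 on the minus strand of the same chromosome. Per2 is at chr1:91415982-91459324, Per3 at chr4:151003652-151044665 and Cry1 at chr10:85131700-85185064, all on the minus strand. Nr1d2 is at chr14:18204054-18239127 and Ciart at chr3:95878503-95882251, also on the minus strand.

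RefSeq promoters (GRCm38.p6, 250 bases before to 50 bases after a start site) were matched by symbol for 9 of the 10 genes, with 11 promoters in all; Per2 had none. They were searched on both strands for an E-box (CACGTG), an E-prime box (CACGTT), a D-box (TTANGTAA), an RRE (TAGGTCA) and a CRE, the cyclic AMP response element (TGACGTCA). Among 32851 promoters of the same length, 7.15% held the E-box, 4.68% the E-prime box, 2.32% the D-box, 2.61% the RRE and 1.79% the CRE. Ciart held 3 E-boxes, which began at -116, -58 and -44 from its start site. Per3 held 2 D-boxes, at -205 and -158. Hlf held a CRE at -9, Per1 an E-box at -166 of its upstream start, and Arntl an RRE at 31 bases after its downstream start. Cry1 held an E-box at -60 and an E-prime box at -79, Nr1d1 held an E-prime box at -28, and no motif was found in these windows of Dbp and Nr1d2. The promoters of 3 genes that were higher under lithium (Ciart, Per3 and Hlf) and of Per1 and Arntl, which were not called, are given 5′ to 3′ on the sense strand with the matched motif in capitals. A match is a description of the letters and not a measured binding site.
Ciart, chr3:95882179-95882478, minus strand: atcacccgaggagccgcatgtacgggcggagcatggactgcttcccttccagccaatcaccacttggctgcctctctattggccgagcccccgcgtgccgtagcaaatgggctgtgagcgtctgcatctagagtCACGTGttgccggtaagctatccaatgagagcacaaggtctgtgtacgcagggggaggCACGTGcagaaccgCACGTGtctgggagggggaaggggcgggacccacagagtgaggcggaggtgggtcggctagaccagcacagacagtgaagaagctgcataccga
Per3, chr4:151044616-151044915, minus strand: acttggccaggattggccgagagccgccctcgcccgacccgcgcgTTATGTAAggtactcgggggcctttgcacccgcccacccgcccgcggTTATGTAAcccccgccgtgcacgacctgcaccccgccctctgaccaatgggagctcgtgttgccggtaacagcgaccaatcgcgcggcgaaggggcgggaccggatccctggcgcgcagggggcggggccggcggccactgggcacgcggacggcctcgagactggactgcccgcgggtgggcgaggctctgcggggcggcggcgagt
Hlf, chr11:90390868-90391167, minus strand: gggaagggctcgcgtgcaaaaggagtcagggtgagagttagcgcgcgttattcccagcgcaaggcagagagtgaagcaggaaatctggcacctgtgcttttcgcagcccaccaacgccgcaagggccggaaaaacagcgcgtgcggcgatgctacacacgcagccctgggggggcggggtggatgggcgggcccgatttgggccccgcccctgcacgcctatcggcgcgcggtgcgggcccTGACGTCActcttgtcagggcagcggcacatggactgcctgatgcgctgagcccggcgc
Per1, chr11:69098699-69098998, plus strand: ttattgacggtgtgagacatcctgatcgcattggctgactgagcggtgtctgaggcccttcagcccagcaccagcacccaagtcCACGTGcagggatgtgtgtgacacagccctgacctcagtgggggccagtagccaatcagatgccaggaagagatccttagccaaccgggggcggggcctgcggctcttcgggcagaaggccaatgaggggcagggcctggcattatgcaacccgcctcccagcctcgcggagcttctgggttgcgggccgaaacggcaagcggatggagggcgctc
Arntl, chr7:113207261-113207560, plus strand: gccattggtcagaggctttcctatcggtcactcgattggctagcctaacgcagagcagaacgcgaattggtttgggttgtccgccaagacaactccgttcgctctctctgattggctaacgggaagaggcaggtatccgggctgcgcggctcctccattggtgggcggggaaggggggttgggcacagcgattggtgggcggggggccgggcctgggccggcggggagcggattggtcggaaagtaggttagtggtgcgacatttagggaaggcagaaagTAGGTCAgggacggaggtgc

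Libraries held 24253955 to 36385936 reads, with a median of 27903312. The values are read counts divided by a size factor of each library, so levels are compared between libraries for a single gene and not between genes. Scn2a averaged 8554 ± 423 in HT libraries (n = 29) and 12311 ± 780 in WT libraries (SD, n = 27), and the ranges of the genotypes did not overlap. Libraries differed in their levels of transcripts used as markers of neighbouring tissue. The summed level of 8 olfactory bulb and neuroblast markers ran from 1548 to 13402 in lithium libraries and from 1396 to 14288 in vehicle libraries. That of 12 striatal markers ran from 7092 to 21667 and from 6719 to 29566 in the same order of treatments. The 23 libraries with a score above 1 for either list were left out in an alternative fit, and its values are given beside the calls that it ended. In bulk tissue, fewer cells of a type and less RNA per cell cannot be told apart.

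Under lithium 5 of the 10 clock genes were called, all higher than under vehicle: Per2, Ciart, Hlf, Per3 and Nr1d2. This count comes from the effect of lithium averaged over HT and WT mice, in limma's moderated test on log2(normalised count + 1), called at an adjusted p below 0.05 over all 17778 genes. In that comparison 16.2% of all genes were called in either direction and 9.31% were called higher, so a large background of called genes stands beside the 5 of 10. All 10 clock genes had a change above 0, with a median of 0.12 on the log2 scale, whereas over all genes tested 50.2% had a change above 0 and the median was 0.00032. By genotype, all 10 were above 0 in HT mice and 8 in WT mice, where Arntl and Dbp were below 0. The averaged changes of Dbp, 0.0035, and of Arntl, 0.014, fell below 0 in some alternative fits. Arntl was at -0.049 without the 23 libraries rich in olfactory or striatal transcripts. It was at -0.0056 with the olfactory marker score as a covariate. Several pairs of the 10 also correlated between libraries, so their directions are not independent. Without the 23 libraries rich in olfactory or striatal transcripts the called clock genes numbered 2 (Hlf and Per3). The changes were then 0.43 for Per2, 0.23 for Ciart, 0.17 for Hlf, 0.17 for Per3 and 0.083 for Nr1d2, none smaller than with all libraries. The share of all genes called in that fit is not given here. The parts of tissue content and of fewer libraries in the lower count were not tested.

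Per2, a core repressor of the loop, showed the largest change of the 10. Its normalised count in the 10 HT lithium libraries ran from 1221 to 1839 (median 1470), against 856 to 1849 (median 1244) in the 10 HT vehicle libraries. In the 9 WT lithium libraries it ran from 1469 to 2174 (median 1537), against 778 to 1938 (median 1164) in the 9 WT vehicle libraries. The groups overlapped, but 10 of the 19 vehicle libraries lay below the lowest lithium library and all 19 lithium libraries lay above the vehicle median. Vehicle libraries were widely spread. In HT vehicle mice the females had 892, 856, 1033, 1455 and 1632 and the males 933, 1634, 1849, 1543 and 874. In WT vehicle mice the females had 969, 778, 1164, 1394 and 1542 and the males 887, 1736, 1938 and 901. Low and high values therefore occurred in both sexes and both genotypes. Averaged over genotypes, Per2 was higher under lithium by 0.39 ± 0.11 (log2, SE), or 31.0%, with an adjusted p of 0.0139 in limma. Without the 23 libraries its change was 0.43 with an adjusted p of 0.1001, no longer called. Within WT mice the change was 0.51 ± 0.16 (adjusted p = 0.0534) and within HT mice 0.27 ± 0.16 (adjusted p = 0.302), neither of them called.

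Hlf, an activator at D-boxes, had the smallest adjusted p of the 10. The 10 HT lithium libraries had 4754 to 6158 (median 5413), against 4694 to 5386 (median 5124) in the 10 HT vehicle libraries. The 9 WT lithium libraries had 5381 to 6158 (median 5599), against 4539 to 5591 (median 4858) in the 9 WT vehicle libraries. In WT mice 8 of the 9 vehicle libraries lay below the lowest lithium library, and only the vehicle male 2, at 5591, reached into the lithium range. Averaged over genotypes Hlf was higher by 0.15 ± 0.030 (log2, SE), or 10.7%, with an adjusted p of 0.00049 in limma, and 18 of the 19 lithium libraries lay above the vehicle mean of their own group. Hlf was also called within WT mice, at 0.19 ± 0.044 (adjusted p = 0.00696), where 5.71% of all genes were called in either direction and 3.84% were called higher. The WT change was 0.19 with an adjusted p of 0.0810, no longer called, without the 23 libraries. Within HT mice it was 0.10 ± 0.041 higher (adjusted p = 0.114).

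Ciart, the E-box repressor with the 3 E-boxes shown above, had 344 to 513 (median 449.0) in HT lithium libraries, against 320 to 459 (median 416) in HT vehicle libraries. It had 396 to 599 (median 506) in WT lithium libraries, against 325 to 518 (median 368) in WT vehicle libraries. The WT lithium libraries were the highest group for this gene, with 4 of 9 above every WT vehicle library. Averaged over genotypes Ciart was higher by 0.22 ± 0.061 (log2, SE), or 16.4%, with an adjusted p of 0.00949 in limma. Without the 23 libraries the change was 0.23 with an adjusted p of 0.157. It was called within WT mice, at 0.32 ± 0.089 (adjusted p = 0.0248), and not within HT mice, at 0.12 ± 0.084 (adjusted p = 0.410). The WT call was lost when WT lithium female 3 or 4, or WT vehicle male 1 or 4, was left out, with adjusted p-values up to 0.0697. It was also lost without the 23 libraries, at 0.32 with an adjusted p of 0.214.

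Per3, a Per family member with the 2 D-boxes shown above, had 1224 to 1563 (median 1437) in HT lithium libraries, against 1095 to 1349 (median 1266) in HT vehicle libraries. It had 1241 to 1701 (median 1453) in WT lithium libraries, against 1172 to 1503 (median 1299) in WT vehicle libraries. The ranges overlapped in both genotypes, with 6 of 10 HT lithium libraries above every HT vehicle library. Averaged over genotypes it was higher by 0.13 ± 0.037 (log2, SE), or 9.62%, with an adjusted p of 0.0106 in limma. In this fit Per3 was the only clock gene called within HT mice, at 0.16 ± 0.051 (adjusted p = 0.0355), where 8.77% of all genes were called in either direction and 4.64% were called higher. The count of 1 of 10 in HT mice is near the background of calls in either direction. The HT call of Per3 was lost when HT lithium female 2 or 4, HT lithium male 1, 3 or 4, HT vehicle female 4, or HT vehicle male 1 or 5 was left out, with adjusted p-values up to 0.0781. Without the 23 libraries the HT change was 0.26 with an adjusted p of 0.0526, not called. With voom weights and with a replicate block Nr1d2 was called in HT mice as well (adjusted p = 0.0492 and 0.0389).

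Nr1d2, a repressor of Arntl, changed least of the 5 and was also the steadiest of the 10 between libraries. It had 2635 to 3082 (median 2907) in HT lithium libraries, against 2526 to 2895 (median 2737) in HT vehicle libraries. It had 2842 to 3300 (median 2969) in WT lithium libraries, against 2584 to 3114 (median 2728) in WT vehicle libraries. Averaged over genotypes it was higher by 0.079 ± 0.022 (log2, SE), or 5.61%, with an adjusted p of 0.0102 in limma, and 17 of 19 lithium libraries lay above their own vehicle mean. Without the 23 libraries the change was 0.083 with an adjusted p of 0.0816.

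**Figure D1:**
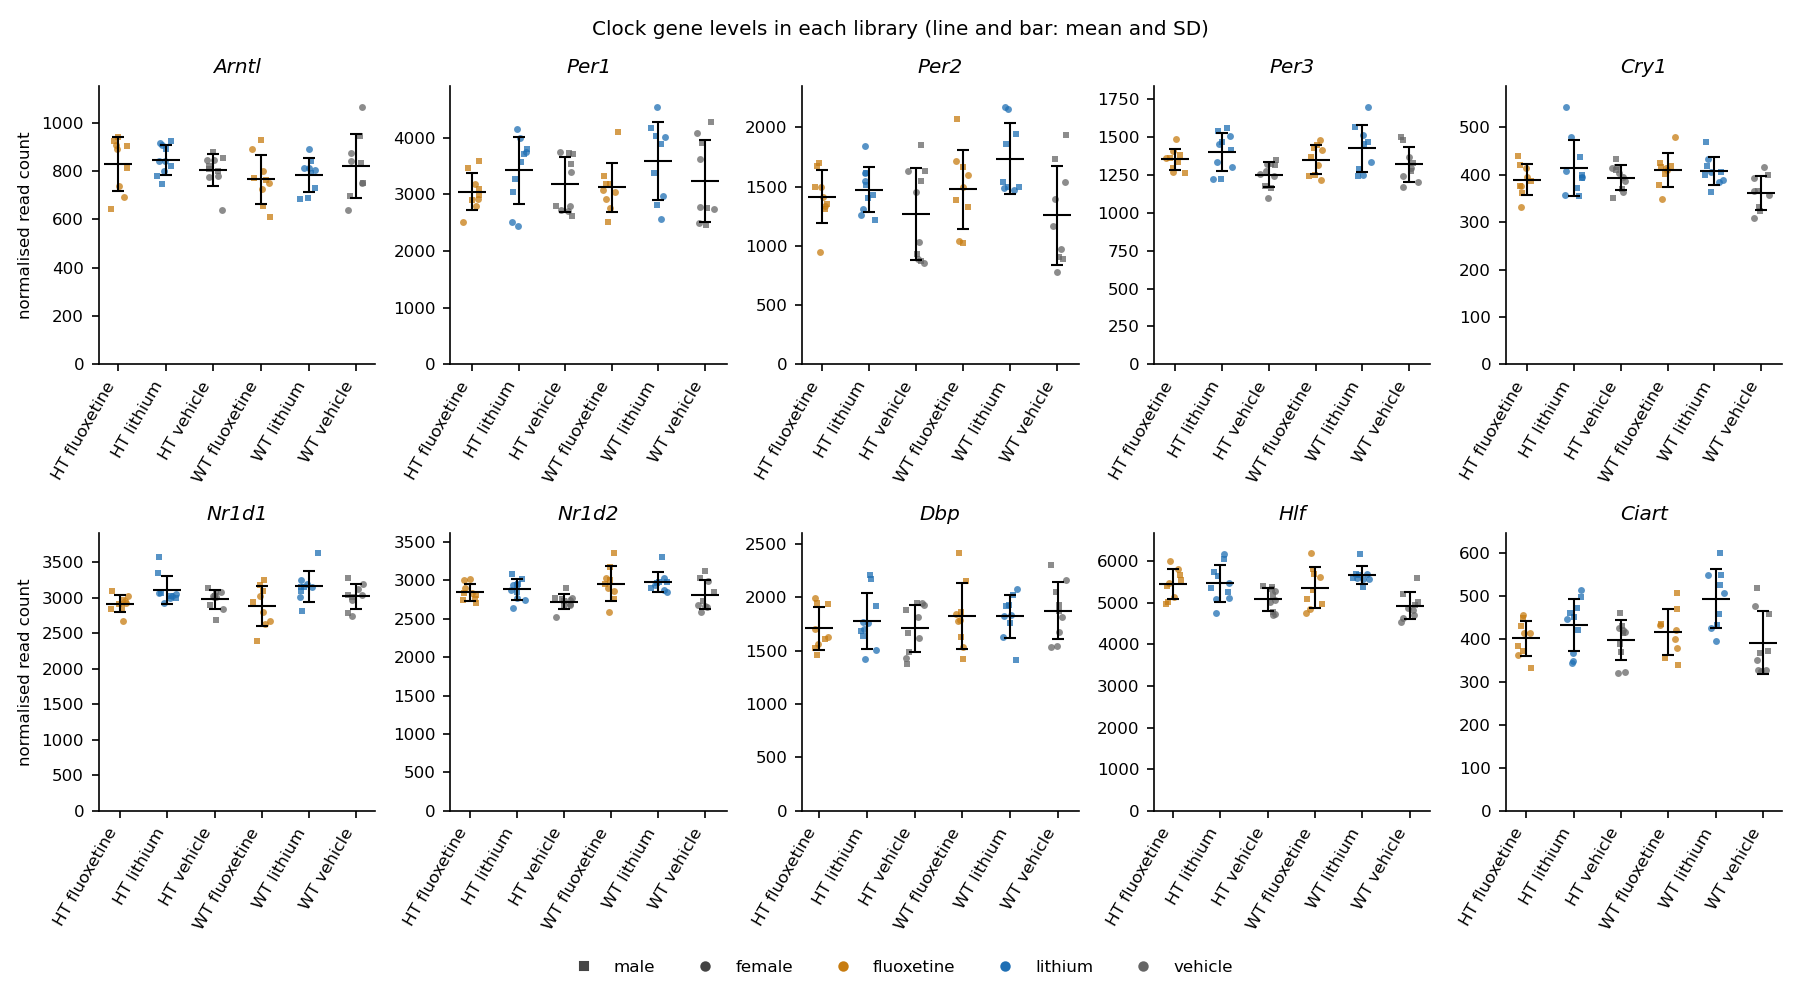
Normalised read count of each clock gene (y axis from 0) in the 6 groups of genotype and treatment, with a square for each male library, a circle for each female library, and a line and bar for the mean and SD. Per2 in vehicle libraries spreads from 778 to 1938, and all groups overlap their neighbours in the order of means.

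The other 5 clock genes were not called under lithium. Cry1, the repressor that acts with the Per proteins, was 0.12 ± 0.044 higher (log2, SE; adjusted p = 0.0589) and was called with DESeq2 (adjusted p = 0.0496), in the fit with a replicate block (0.0420), and when any of 7 single libraries was left out. With the olfactory marker score as a covariate, added after the data had been seen, Cry1 was called averaged over genotypes, at 0.13 (adjusted p = 0.0128), and in WT mice, at 0.21 (adjusted p = 0.0215). Its levels were 355 to 544 (median 398) in HT lithium libraries, against 350.0 to 433 (median 399) in HT vehicle libraries. They were 364 to 469 (median 406) in WT lithium libraries, against 309 to 416 (median 365) in WT vehicle libraries. Nr1d1, the partner repressor of Nr1d2, was 0.062 ± 0.030 higher (adjusted p = 0.167). Per1 was 0.13 ± 0.083 higher (adjusted p = 0.320), with a 95% interval from -0.041 to 0.29.

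Arntl and Dbp, which peak at opposite phases in many tissues, showed the smallest differences averaged over genotypes. Arntl had 745 to 927 (median 842) in HT lithium libraries, against 639 to 880 (median 817) in HT vehicle libraries. It had 687 to 894 (median 805) in WT lithium libraries, against 639 to 1068 (median 835) in WT vehicle libraries. Averaged over genotypes its difference was 0.014 (95% interval -0.094 to 0.12; adjusted p = 0.898). Dbp had 1422 to 2210 (median 1729) in HT lithium libraries, against 1373 to 1949 (median 1737) in HT vehicle libraries. It had 1412 to 2072 (median 1828) in WT lithium libraries, against 1534 to 2295 (median 1871) in WT vehicle libraries. Its difference was 0.0035 (95% interval -0.12 to 0.13; adjusted p = 0.982). Neither interval excludes a difference of the size found for Nr1d2.

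**Figure D2:**
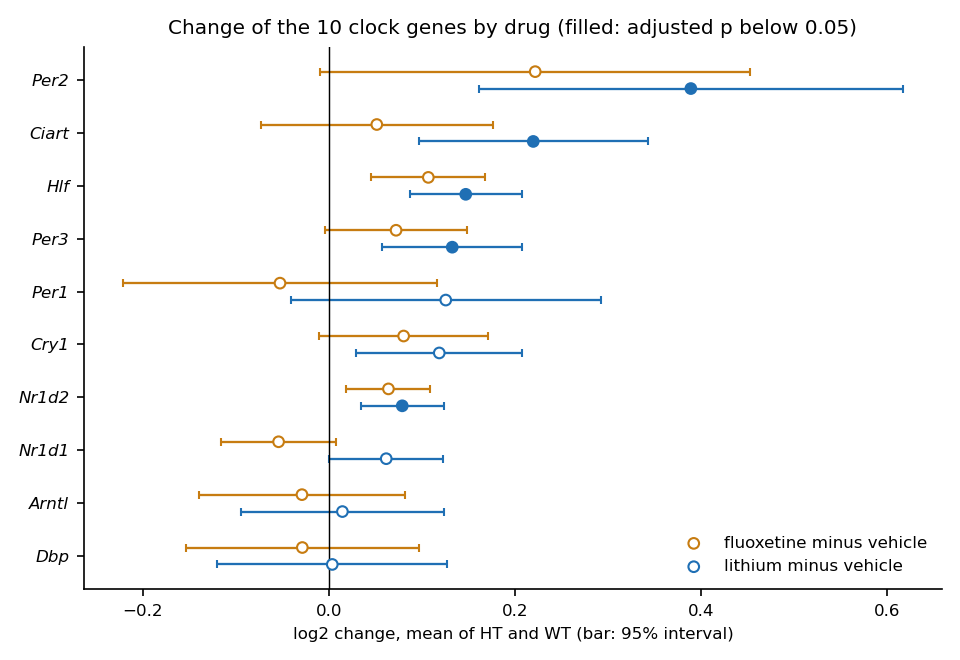
Log2 change under fluoxetine and under lithium (x axis), averaged over HT and WT mice, with 95% intervals, for each clock gene; filled points have an adjusted p below 0.05 in limma. The filled points are the lithium values of Per2, Ciart, Hlf, Per3 and Nr1d2, from 0.39 to 0.079.

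The response to lithium was not shown to differ between genotypes. The interaction called none of the 10 clock genes and 0 of 17778 genes in limma, none of the 10 had an unadjusted p below 0.05, and edgeR and DESeq2 called 0 of the 10. For Ciart the lithium change in HT mice minus that in WT mice was -0.20 (95% interval -0.45 to 0.044; adjusted p = 0.533), and for Per2 it was -0.25 (95% interval -0.70 to 0.21; adjusted p = 0.697). Within sexes, the only clock gene called in this fit was Hlf in WT females under lithium, at 0.25 ± 0.062 (log2, SE; adjusted p = 0.0458 in limma), where 0.799% of all genes were called. In the other fits within a sex, which called 0 of the 10 clock genes, limma called 0.990% of all genes for lithium in HT females, 0.546% for lithium in HT males, 0.208% for lithium in WT males, 0.0169% for fluoxetine in WT females and 0.00562% for genotype under vehicle in either sex. WT lithium females had Hlf at 5566, 5599, 5562 and 5687, against 4832, 4858, 4539, 4637 and 4697 in WT vehicle females, with no overlap. The Hlf call was lost without any single library of these females other than vehicle female 1 or 4, and without HT fluoxetine male 4, HT lithium male 2 or WT lithium male 2, with adjusted p-values up to 0.159. It was lost too with TMM rescaling (adjusted p = 0.0570), voom weights (0.0663), only the groups compared (0.0629), edgeR (0.0632), the glucocorticoid covariate (0.0782) and the olfactory covariate (0.0778). Without the 23 libraries Hlf was at 0.25 with an adjusted p of 0.258, and the only clock gene then called within a sex was Nr1d1 in HT males under lithium, at 0.23 (adjusted p = 0.0448). In WT males the change of Hlf was 0.13 ± 0.062 (adjusted p = 0.362), and the male minus female difference was -0.12 ± 0.087 (adjusted p = 0.803).

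Fluoxetine called none of the clock genes, in HT mice, in WT mice or averaged over genotypes. Averaged over genotypes, limma called 0.928% of all genes and 0 of the 10 clock genes; 2 (Hlf and Nr1d2) had an unadjusted p below 0.05, edgeR called 0 and DESeq2 called 1 (Hlf). The 10 changes had a median of 0.058 on the log2 scale, 6 of them above 0, against a median of 0.0011 over all genes. Hlf had 4967 to 5995 (median 5473) in HT fluoxetine libraries, against 4694 to 5386 (median 5124) in HT vehicle libraries. It had 4759 to 6180 (median 5302) in WT fluoxetine libraries, against 4539 to 5591 (median 4858) in WT vehicle libraries. The averaged difference of Hlf was 0.11 ± 0.030 (adjusted p = 0.0672). Per2 was 0.22 ± 0.11 higher (adjusted p = 0.381). Within HT mice limma called 0.0450% of genes and 0 clock genes, with 3 at an unadjusted p below 0.05 (Hlf, Nr1d2 and Per3); within WT mice it called 0.146% of genes and 0 clock genes, with 2 at an unadjusted p below 0.05 (Cry1 and Hlf). edgeR and DESeq2 called 0 in each genotype. The fluoxetine and lithium comparisons share their vehicle libraries.

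Genotype and sex called none of the clock genes either. HT minus WT, averaged over treatments, called 0.152% of genes and 0 of the 10 in limma; Nr1d2 was closest, at -0.046 ± 0.018 (log2, SE; unadjusted p = 0.0156, adjusted p = 0.441), and was the single member with an unadjusted p below 0.05. Nr1d2 averaged 2815 ± 131 in HT libraries (n = 29) and 2914 ± 195 in WT libraries (SD, n = 27). Under vehicle 0.00562% of genes were called, under fluoxetine 0.0112% and under lithium 0.0337%, with 0 of the 10 clock genes each time; those with an unadjusted p below 0.05 were Cry1 under vehicle and Ciart under lithium. Male minus female called 0.197% of genes and 0 of the 10; Nr1d2 and Ciart had an unadjusted p below 0.05, and Ciart was 0.11 ± 0.050 higher in males (adjusted p = 0.760). edgeR and DESeq2 called 0 of the 10 in each of these comparisons. When the 6 groups were ordered by mean, the ranges of all 5 neighbouring pairs overlapped for each of the 10 genes, and neighbours differed by less than their smaller SD in all 5 pairs for 8 of the genes and in 4 of 5 for Hlf and Ciart. WT lithium libraries had the highest mean for 7 of the 10: Per1, Per2, Per3, Nr1d1, Nr1d2, Hlf and Ciart.

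The genes differed in how much they varied between libraries of the same group. The within-group SD on the log2 scale was 0.35 for Per2, 0.26 for Per1, 0.19 for Dbp and Ciart, 0.17 for Arntl, 0.14 for Cry1, 0.12 for Per3, 0.096 for Nr1d1, 0.094 for Hlf and 0.067 for Nr1d2. Set among genes of similar mean level, the SD of Per2 stood at percentile 99.2, that of Per1 at 98.6 and that of Dbp at 96.6. Nr1d2, at percentile 35.2, varied less than most genes of its level.

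The comparison of phases asked whether libraries with more Arntl than their group had less of the genes that peak opposite to it. Deviations of log2(value + 1) from group means were correlated over the 56 libraries, with p-values from 100000 permutations within groups. Of the 9 relations of Arntl, 7 were negative and 2 positive, and 0 passed after Benjamini-Hochberg adjustment over the 9; only that with Ciart had an unadjusted p below 0.05. Arntl and Ciart had a Pearson r of -0.39 (permutation p = 0.0130, adjusted p = 0.117) and a Spearman rho of -0.29 (permutation p = 0.0564, adjusted p = 0.508). Arntl and Dbp had r = -0.26 (permutation p = 0.1104, adjusted p = 0.469) and rho = -0.23 (permutation p = 0.133, adjusted p = 0.601). Arntl and Per1 had r = -0.21 (permutation p = 0.156, adjusted p = 0.469) and rho = -0.17 (permutation p = 0.244, adjusted p = 0.663). With Per2, Nr1d1 and Nr1d2, r was -0.016, 0.010 and -0.12. Without the 2 libraries farthest in Arntl (HT fluoxetine male 3 and WT vehicle female 1), r was -0.37 with Ciart and -0.31 with Dbp.

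A phase contrast was also formed in each library as the mean log2 value of Per1, Per2, Per3, Nr1d1, Nr1d2, Dbp, Hlf and Ciart minus the log2 value of Arntl. It describes libraries against each other and was not tested. It ran from 0.65 to 1.73 over the 56 libraries, with a median of 1.24. WT lithium libraries ran from 1.25 to 1.61 (median 1.45), against 0.65 to 1.73 (median 1.097) in WT vehicle libraries. HT lithium libraries ran from 0.96 to 1.57 (median 1.186), against 0.98 to 1.48 (median 1.18) in HT vehicle libraries. WT vehicle libraries thus held both the lowest and the highest value of all 56, and their range enclosed that of the WT lithium libraries.

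**Figure D3:**
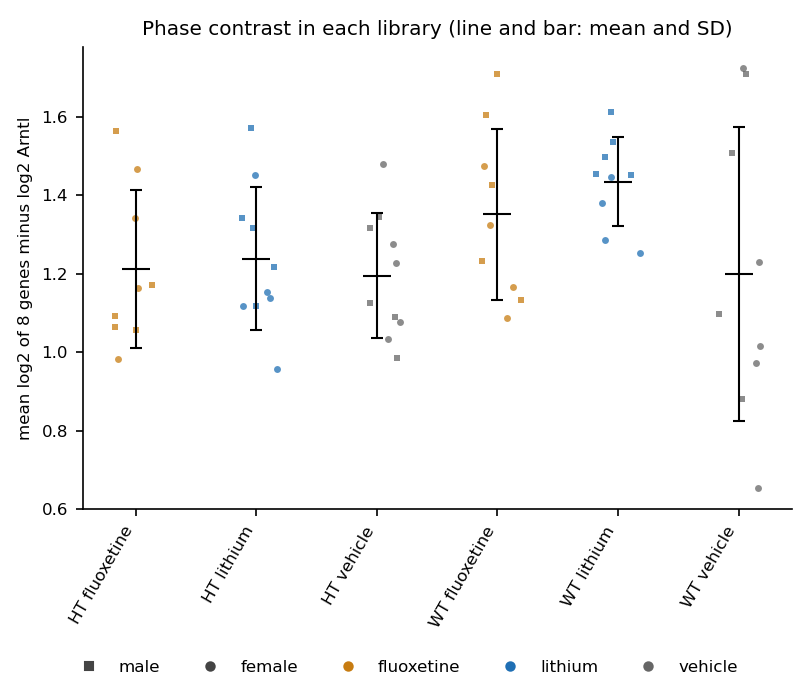
Phase contrast in each library (y axis, mean log2 value of 8 genes minus the log2 value of Arntl) by genotype and treatment, with squares for males, circles for females, and a line and bar for the mean and SD. WT lithium libraries lie between 1.25 and 1.61, within the 0.65 to 1.73 of WT vehicle libraries.

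Among the other 36 pairs of clock genes, examined after the data had been seen, 16 passed after adjustment over the 36, of which 15 were positive and 1 negative. Per1 and Per2 had r = 0.71 and rho = 0.73 (each permutation p = 1e-05, the smallest these permutations can give; adjusted p = 0.00018). Per2 and Cry1 had r = 0.61 and rho = 0.68 (each permutation p = 1e-05, adjusted p = 0.00018). Per1 correlated with Ciart at r = 0.60 and rho = 0.56 (permutation p = 0.00023 and 0.00030, adjusted p = 0.0017 and 0.0027). Nr1d2 and Hlf had r = 0.55 and rho = 0.51 (permutation p = 0.00012 and 0.00047, adjusted p = 0.0011 and 0.0028). Nr1d1 and Dbp had r = 0.52 and rho = 0.39 (permutation p = 0.0011 and 0.011, adjusted p = 0.0049 and 0.030). The negative pair was Cry1 and Nr1d1, with r = -0.38 and rho = -0.41 (permutation p = 0.0021 and 0.0040, adjusted p = 0.0085 and 0.014). Leaving out the 2 farthest libraries gave 0.72 for Per1 with Per2, 0.61 for Per2 with Cry1, 0.58 for Per1 with Ciart, 0.56 for Nr1d2 with Hlf, 0.43 for Nr1d1 with Dbp and -0.40 for Cry1 with Nr1d1.

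**Figure D4:**
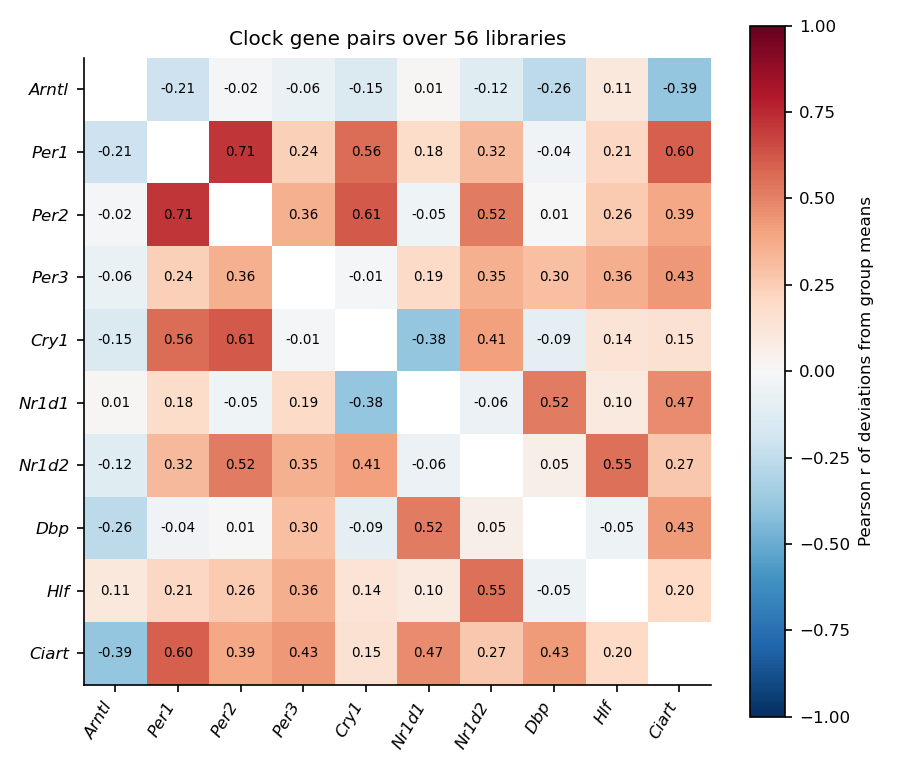
Pearson r between clock genes, computed on deviations from group means over 56 libraries, with red for positive and blue for negative values. Per1 with Per2 has the highest r, at 0.71, and Arntl with Ciart the lowest, at -0.39.

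Several measures outside the 10 genes moved with them, and were also examined after the data had been seen, in 30 relations adjusted together, of which 17 passed. The mean of 10 immediate early genes (Fos, Egr1, Arc and others induced by neuronal activity) correlated with Per1 at r = 0.80 and rho = 0.80 (each permutation p = 1e-05, the smallest possible; adjusted p = 7.5e-05). With Per2 it had r = 0.41 and rho = 0.42 (permutation p = 0.0057 and 0.0051, adjusted p = 0.014 and 0.012). The mean of 12 glucocorticoid-responsive genes passed with 7 of the 10 clock genes, which include all 5 called under lithium: r was 0.72 with Nr1d2, 0.51 with Hlf, 0.49 with Cry1, 0.47 with Per2, 0.40 with Per1, 0.39 with Per3 and 0.36 with Ciart. Across these 7, rho ran from 0.38 to 0.69, with permutation p-values up to 0.0182 and adjusted p-values up to 0.0342, and without the 2 farthest libraries r ran from 0.26 (Ciart) to 0.72 (Nr1d2). It correlated with Nr1d2 at r = 0.72 and rho = 0.69 (each permutation p = 1e-05; adjusted p = 7.5e-05). Bhlhe40, a repressor at E-boxes that is itself induced by activity, correlated with Per1 at r = 0.89 and rho = 0.88 and with Per2 at r = 0.76 and rho = 0.79 (each permutation p = 1e-05; adjusted p = 7.5e-05). Without the 2 libraries farthest in the measure, these r values were 0.78, 0.41, 0.72, 0.88 and 0.75 in the order given.

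Markers of neighbouring tissue also moved with some of the 10 within groups, described here without a test. All 8 olfactory markers had a negative r with Arntl, from -0.50 to -0.44, lower than the r of Arntl with any other clock gene. They had r from 0.39 to 0.51 with Cry1 and from -0.47 to -0.27 with Nr1d1, the genes of the negative pair. Their r ran from 0.024 to 0.17 with Per2 and from -0.35 to -0.13 with Hlf. The 12 striatal markers had r from -0.17 to 0.15 with Arntl and from 0.076 to 0.39 with Cry1. The part of these markers in the relations between clock genes was not tested, apart from the r of Arntl without the 23 libraries.

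**Figure D5:**
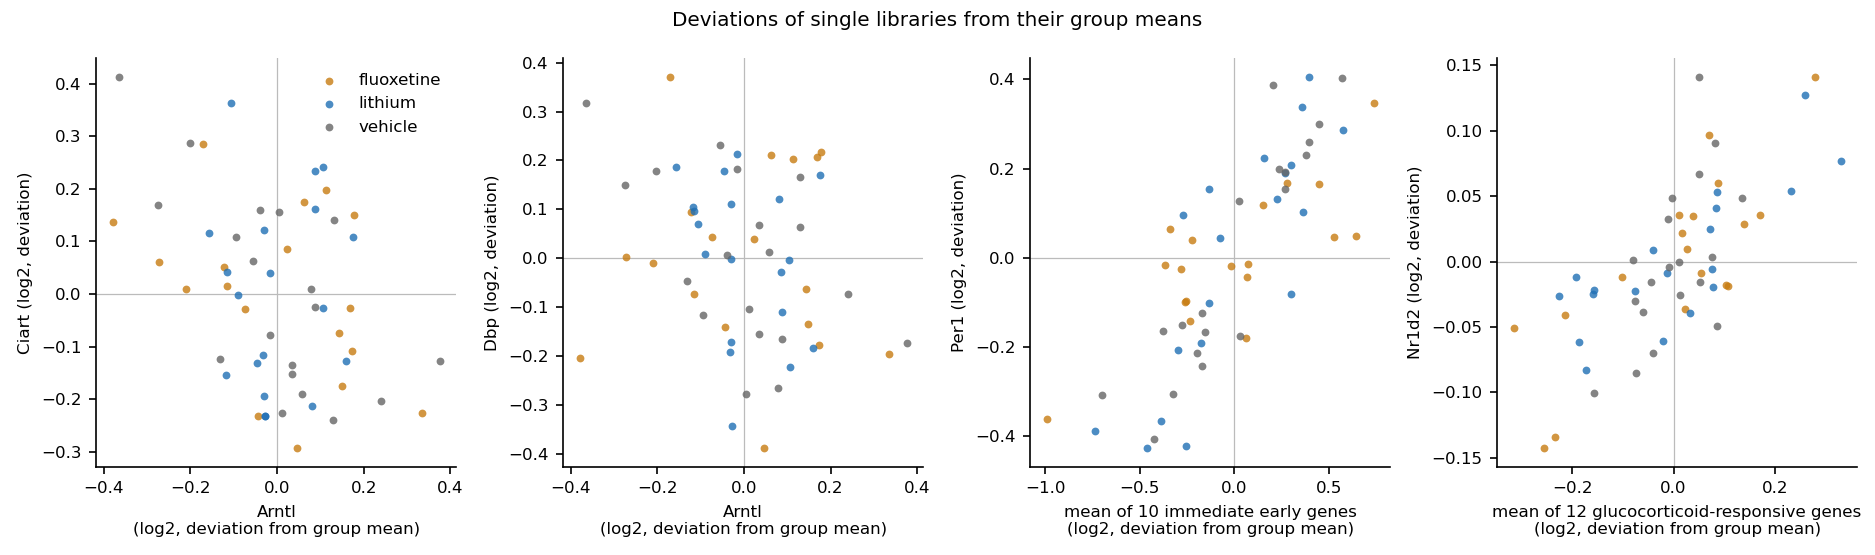
Deviation of each library from its group mean (both axes log2) for Ciart and Dbp against Arntl, Per1 against the mean of 10 immediate early genes, and Nr1d2 against the mean of 12 glucocorticoid-responsive genes, coloured by treatment. The r values are -0.39, -0.26, 0.80 and 0.72.

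The glucocorticoid-responsive genes also moved with lithium. Their mean log2 level ran from 9.71 to 10.26 in lithium libraries (median 9.92), from 9.56 to 10.22 in fluoxetine libraries (median 9.87) and from 9.50 to 9.85 in vehicle libraries (median 9.72). Averaged over genotypes, 7 of the 12 were called higher under lithium, where 9.31% of all genes were called higher, among them Zbtb16 at 0.58 ± 0.099, Tsc22d3 at 0.44 ± 0.076, Hif3a at 0.66 ± 0.12 and Klf9 at 0.15 ± 0.034 (log2, SE; adjusted p = 5.71e-05, 5.71e-05, 0.000173 and 0.00225 in limma). Under fluoxetine 5 of the 12 were called higher, where 0.928% of all genes were called in either direction. With the mean of these genes as a covariate, added after the data had been seen, 0 of the 10 clock genes were called under lithium: Per2 was then 0.13 higher (adjusted p = 0.662), Ciart 0.11 (0.449), Hlf 0.070 (0.241), Per3 0.059 (0.514) and Nr1d2 0.0013 (0.983). The covariate itself differed between lithium and vehicle libraries, so the share of each cannot be told apart. With the mean of the immediate early genes as a covariate the count stayed at 5. Neither covariate count is set beside the share of all genes called in its own fit, so neither is read as particular to the clock genes. Of the 10 immediate early genes 0 were called under lithium, with 7 above 0 and a median of 0.069. Averaged over genotypes, the 8 olfactory markers were all below 0 under lithium, with a median of -0.26, and 0 were called. By genotype their median was -0.63 in WT mice, with all 8 below 0, and 0.033 in HT mice, with 6 above 0. The 12 striatal markers had a median of 0.26 in WT mice, with all 12 above 0, and -0.097 in HT mice, with 9 below 0. None of these markers was called in either genotype. Averaged over genotypes, 3 of 7 microglia markers and 2 of 5 meningeal markers were called lower, where 6.85% of all genes were called lower. Of 7 endothelial markers 3 were called, 1 higher and 2 lower. All 5 choroid plexus markers were below 0, with a median of -0.37, and 0 were called. Of 9 astrocyte markers 8 were below 0 and 1 (S100b) was called lower, and of 5 cortical excitatory markers 1 (Tbr1) was called higher. The part of these cell type differences in the clock gene result was not tested, apart from the fits without the 23 libraries and with a marker score as covariate.

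Of 24 other genes of the clock machinery, lithium averaged over genotypes called 8, 7 higher and 1 lower, where 16.2% of all genes were called, 9.31% higher and 6.85% lower. The median change of the 24 was 0.054, with 20 above 0. Rorb, a nuclear receptor that activates at RRE elements, was lower, at -0.19 ± 0.040 (log2, SE; adjusted p = 0.000646 in limma), with all 19 lithium libraries below their vehicle mean. Btrc and Fbxw11, ubiquitin ligase subunits that target PER proteins, were 0.10 ± 0.025 and 0.071 ± 0.021 higher (adjusted p = 0.00315 and 0.0139). Usp2, a deubiquitinase, was 0.11 ± 0.027 higher (adjusted p = 0.00397), and Bhlhe41, a repressor at E-boxes, was 0.12 ± 0.040 higher (adjusted p = 0.0279). The kinases Gsk3b and Csnk1e, which phosphorylate clock proteins, were 0.093 ± 0.028 and 0.056 ± 0.018 higher (adjusted p = 0.0156 and 0.0261). Gsk3b is also a kinase that lithium inhibits. Clock and Npas2, the partners of Arntl, differed by 0.013 ± 0.028 and 0.022 ± 0.036 and were not called, nor were Cry2 (0.050 ± 0.022), Tef (0.075 ± 0.029), Bhlhe40 (0.22 ± 0.088), Nfil3 (0.00015 ± 0.084) and Rora (0.055 ± 0.046). Within WT mice 4 of the 24 were called, all higher, among them Fbxw11, Btrc and Usp2, and within HT mice 2 were called (Bhlhe41 higher and Rorb lower). Of all genes 5.71% were called in WT mice and 8.77% in HT mice, and the count in HT mice is near that background.

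The genes whose deviations were most like those of Dbp and Arntl were taken from 12815 genes with a mean value of at least 50. The clock genes of the main list and predicted genes were left out beforehand. For Dbp they were Pcsk1n, at r = 0.74, then Gstp1, Tpgs1, Bmyc and Ssbp4, down to 0.70, and the most opposite were Pds5a, at r = -0.64, Zmym4 and Asxl3. For Arntl they were Fbh1, at r = 0.64, then Actn1, Coch, Akap5 and Dclk3, down to 0.60, and among the most opposite were Efs and Rps4x, each at r = -0.56. For Per2, added after the data had been seen, they were Spred2, at r = 0.89, then Sik2, P4ha1, Hivep3 and Ankrd33b, down to 0.86, and the most opposite was Map3k21, at r = -0.76. None of the 5 genes most like each was among the other genes of the clock machinery listed above. Genes of the main list could not appear, since they were left out. These are the extremes of many correlations over 56 libraries and are given as a description.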

How the data were processed

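Messenger RNA of the prefrontal cortex was sequenced in 56 libraries of 12 groups of genotype, treatment and sex. The authors deposited a table of signal values per Ensembl gene, which are read counts divided by a size factor of each library. Per the submitters' processing notes, Salmon 0.11.2, DESeq2 1.19.11, R 3.6.0 and GRCm38 were used. Whole reads were recovered from these deposited signal values for 100% of values within 0.01 reads, with size factors from 0.818 to 1.23. Of 18088 gene IDs, 18077 were paired with a symbol.

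Values were tested as log2(value + 1) with limma 3.58.1 in R 4.3.3 (moderated test with trend and robust settings, 12 group means, Benjamini-Hochberg over 17778 genes, called at an adjusted p below 0.05). The filter left out 310 genes. The test was checked on simulated counts drawn independently for each library. They held no shared dams, litters or differences in tissue content, so the check does not cover these. Drug effects are the mean of both sexes; a percent change is the log2 change on a linear scale. The recovered reads were also tested with edgeR 4.0.16 and DESeq2 1.42.0, which called 2826 and 2910 genes for lithium averaged over genotypes, where limma called 2872. Other alternatives were TMM rescaling, voom weights, no filter, a pseudocount of 0.5 or 5, only the groups compared, a replicate block, leaving out each library, leaving out 23 libraries with an olfactory or striatal score above 1, and 4 covariates chosen after seeing the data. The labels do not say that replicates are separate mice, and p-values then measure the spread between these samples. Each library was treated as independent, although pups of the same dam would share their dosing and the dams are not given. The labels do not say what a shared replicate number means, and the main fit did not pair samples by it.

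All 10 clock genes were named whether called or not, together with other clock genes that were called and 8 fixed ones, up to 4 genes of other lists with the smallest p, and for Dbp and Arntl the 5 most and 3 least alike genes. The members and lists were chosen with earlier results of these data known. Some genes that this rule would name are not reported here.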

Additional observations from a re-analysis of the deposited data

Results flagged for a closer look

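In 120 groups of a clock gene and 4 or 5 libraries, 4 held a library far from the others, where chance alone flags about 1 in 20 groups. Arntl was 894 in WT lithium female 3, against 805 to 814 in the other 3 females of that group. Nr1d2 was 3300.07 in WT lithium male 5, against 2896 to 2980 in the other males of that group. Nr1d2 was 2991 and Ciart 476 in WT vehicle female 5, against 2584 to 2682 and 325 to 351 in the other females of that group. Without WT vehicle female 5 the lithium change of Ciart and Nr1d2 averaged over genotypes stayed called.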

How the results depend on the processing

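The 10 genes had at least 309 normalised reads in every library, and counting error was not separated from the spread between libraries. Of the log2 changes of clock genes and the correlations of Arntl under alternatives other than leaving out single libraries, 936 kept their direction and side of the threshold, 36 reversed, 21 were no longer called and 9 became called; the cause was not tested.

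The counts below are given without the share of all genes called in each alternative fit. For lithium averaged over genotypes the count of called clock genes was 5, and it was 6 with DESeq2 (Cry1 in addition), 2 without the libraries rich in olfactory or striatal transcripts and 0 with the glucocorticoid covariate. For lithium in HT it was 1, and it was 2 with voom weights, 2 with the replicate block (Per3 and Nr1d2), 0 without those libraries and 0 with the glucocorticoid covariate. For lithium in WT it was 2, and it was 0 without those libraries and 0 with the glucocorticoid covariate. For fluoxetine averaged over genotypes it was 0, and it was 1 (Hlf) with DESeq2 and 1 with the olfactory covariate. Within a sex it was 1, and it was 0 with TMM rescaling, voom weights, only the groups compared, edgeR, the glucocorticoid covariate and the olfactory covariate. Leaving out single libraries gave 0 to 1 for lithium in HT, 1 to 3 for lithium in WT, 0 to 1 for fluoxetine averaged over genotypes, 0 to 1 within a sex and 5 to 6 for lithium averaged over genotypes. With the replicate block Per2 was also called for lithium in WT (0.51, adjusted p = 0.0263) and Cry1 for lithium averaged over genotypes (0.12, adjusted p = 0.0420). With the olfactory covariate Cry1 was also called for lithium in WT and for lithium averaged over genotypes. Replicate numbers were those of the sample titles, which differ from the library names for some WT females. Among 292 same-numbered pairs the correlation ran from -0.24 to 0.43 and was over 0.1 in 24. Pairs with different numbers were not compared, so these values cannot tell whether same-numbered samples shared a litter or batch.

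Reversed values, none of them called, were as follows. With the glucocorticoid covariate the log2 change was -0.0092 for Ciart under fluoxetine in HT; under fluoxetine in WT it was -0.065 for Per2, -0.062 for Per3, -0.035 for Nr1d2 and -0.055 for Ciart; under lithium in HT it was -0.053 for Per1 and -0.039 for Cry1; under lithium in WT it was -0.029 for Per1 and -0.0059 for Nr1d2; averaged over genotypes it was 0.0020 for Arntl, -0.0023 for Cry1 and -0.032 for Ciart under fluoxetine and -0.041 for Per1 under lithium. With the immediate early covariate it was 0.037 for Per1 and 0.00027 for Cry1 under fluoxetine in HT, 0.13 for Per1 under fluoxetine in WT and 0.084 for Per1 under fluoxetine averaged over genotypes. With the olfactory covariate it was 0.00060 for Cry1 and -0.0094 for Dbp under fluoxetine in HT, and -0.0056 for Arntl and -0.0062 for Dbp under lithium averaged over genotypes. Dbp under lithium averaged over genotypes was -0.00023 with the striatal covariate, -0.0016 with TMM rescaling, -0.0035 with voom weights and -0.0025 with edgeR, and Dbp under fluoxetine in HT was -0.00052 with the replicate block and -0.00036 with edgeR. Without the libraries rich in olfactory or striatal transcripts it was 0.077 for Per1 and -0.0091 for Per3 under fluoxetine in WT, 0.0079 for Arntl, 0.0094 for Per1 and 0.022 for Dbp under fluoxetine averaged over genotypes and -0.049 for Arntl under lithium averaged over genotypes. The r of Arntl with Nr1d1 was -0.016 with TMM rescaling and -0.31 without those libraries, and that of Arntl with Hlf was -0.021 without them. Leaving out single libraries, the log2 change under fluoxetine in HT ran from -0.0033 to 0.079 for Arntl, -0.045 to 0.0082 for Cry1, -0.031 to 0.034 for Dbp and -0.0077 to 0.051 for Ciart; under fluoxetine in WT from -0.11 to 0.020 for Per1; under lithium in WT from -0.092 to 0.00088 for Arntl; and under lithium averaged over genotypes from -0.0084 to 0.038 for Arntl and -0.014 to 0.025 for Dbp.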
